A study of Homo sapiens with 18 samples.

Results

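A set of 50 genes of ribosome biogenesis and the nucleolus were followed through WDR5 knockdown in 3 metastatic breast cancer cell lines. They were chosen by name, with no measured value in the rule but with earlier results of these data known. They make up 50 of the 58815 genes in the count table. The genes were grouped by role into the box C/D snoRNP (3 genes), the box H/ACA snoRNP (4), nucleolar chaperones and scaffolds (3), RNA polymerase I and its factors (6), small subunit processing and assembly (15), large subunit processing and assembly (17) and other nucleolar factors (2). Of these, 49 passed the filter on low counts that left 12081 genes for testing, and NOP2 did not.

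Ribosomes are made in the nucleolus, where RNA polymerase I transcribes a long precursor rRNA. Small nucleolar RNPs (snoRNPs) guide its modification, and a succession of assembly factors cut, fold and load it with ribosomal proteins until the small and large subunits leave for the cytoplasm. The genes for these factors are highly expressed in dividing cancer cells, and many are known targets of the transcription factor MYC, for which WDR5, a WD40-repeat scaffold of histone methyltransferase complexes, is a chromatin cofactor.

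The 3 lines descend from MDA-MB-231, a triple-negative human breast cancer line, and were selected in mice for spread to lung (LM2), brain (BrM3) and bone (BoM). The brain derivative is BrM in the sample titles and BrM2 in the cell line label, and the tissue named in the sample source disagreed with the title for most samples, so the titles gave the groups. Every line carried a doxycycline-inducible hairpin, shCtrl or shWDR5, and all 18 libraries, 3 for each hairpin in each line, came from cells given 1 µg/mL doxycycline for 3 days, so no uninduced cells entered the comparison. The 3 replicates of a group were separate harvests at different passages, and 1 hairpin against WDR5 was used, so an effect of WDR5 loss and another effect of that hairpin cannot be told apart.

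Total counts ran from 17485841 to 119667013 per library. WDR5 fell in every line, with a log2 fold change of −2.43 for LM2, −1.97 for BrM3 and −2.24 for BoM (edgeR quasi-likelihood test, adjusted p = 1.8e-08, 4.2e-07 and 6.2e-08), with 79.4 to 134 CPM (read counts scaled to library size) in the shCtrl libraries and 14.0 to 24.4 in the shWDR5 libraries. Of the mesenchymal markers of MDA-MB-231, VIM at 1490 to 2230 CPM, AXL at 712 to 1730, CD44 at 498 to 765 and FN1 at 105 to 1300 were present in every library. SPARC ran from 1.06 to 405 CPM, so it was near absent in its lowest library. Of the markers that should be absent or low, ESR1, PGR, CDH1 and GRHL2 stayed at or under 0.715 CPM, EPCAM reached 10.1 and ERBB2 83.4. The luminal keratins KRT8 and KRT18 were nevertheless at 194 to 501 CPM, while GATA3 and FOXA1 stayed at or under 9.24. Of the fibroblast markers, COL1A1 reached 87.1 CPM, PDGFRB 10.6 and COL1A2 6.05, and DCN and THY1 stayed at or under 0.862. The count table holds 0 spike-in rows, so every change below is relative to the rest of the measured transcripts. The authors added spike-in RNA by cell number and report that total RNA did not shift after knockdown, which cannot be rechecked here. In bulk cells a change in the RNA made per cell and a change in the mix of cells cannot be told apart.

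Promoter sequence is given first, since the E-box (CACGTG), ETS core (CCGGAAG) and YY1 core (AAGATGG) lie close to the starts of many growth genes. RefSeq promoters on GRCh38.p14, from 250 bases before to 50 bases after the start, were found for 42 of the 50 genes, and the letters were searched on both strands. An E-box stood in 17 of 42 (40.5%), against 7.43% of all 27305 promoters and 8.88% of the 15843 protein-coding ones. The ETS core stood in 15 (35.7%), against 10.7% and 14.2%, and the YY1 core in 5 (11.9%), against 6.06% and 6.4%. The last letters of the ETS core can also be the first of the YY1 core, and a match says only that the letters are there. The upstream 250 bases are shown for 4 genes that are described library by library and that carry a motif there. TAF1D, NOC3L and NIP7 are among the 4 largest rises after knockdown. EBNA1BP2 is the gene most different from LM2 in the shCtrl cells of both other lines. GNL3, also among the 4 largest rises, held none of these motifs, and neither did NOP56, DKC1, NPM1, NCL and DDX10. FBL and DDX21 held an ETS core upstream. The genes shown were picked for carrying a motif, so they show no link between motif and rise. Motifs stand in capitals, 5′ to 3′ on the strand of the gene, and the last base is the one just before the start.
TAF1D: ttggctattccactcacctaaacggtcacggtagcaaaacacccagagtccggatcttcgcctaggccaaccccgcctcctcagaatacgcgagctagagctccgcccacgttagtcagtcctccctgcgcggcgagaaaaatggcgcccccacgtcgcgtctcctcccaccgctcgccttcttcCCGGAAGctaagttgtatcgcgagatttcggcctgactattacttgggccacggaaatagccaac
NOC3L: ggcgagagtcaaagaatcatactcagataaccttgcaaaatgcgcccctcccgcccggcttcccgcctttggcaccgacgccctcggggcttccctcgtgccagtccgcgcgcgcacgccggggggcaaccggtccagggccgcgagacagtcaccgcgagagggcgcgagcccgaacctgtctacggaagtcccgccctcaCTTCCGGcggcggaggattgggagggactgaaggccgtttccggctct
NIP7: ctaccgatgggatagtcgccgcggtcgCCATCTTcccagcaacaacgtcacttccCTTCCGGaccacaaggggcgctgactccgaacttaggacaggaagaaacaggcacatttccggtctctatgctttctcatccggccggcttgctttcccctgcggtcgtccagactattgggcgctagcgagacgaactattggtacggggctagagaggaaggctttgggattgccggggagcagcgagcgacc
EBNA1BP2: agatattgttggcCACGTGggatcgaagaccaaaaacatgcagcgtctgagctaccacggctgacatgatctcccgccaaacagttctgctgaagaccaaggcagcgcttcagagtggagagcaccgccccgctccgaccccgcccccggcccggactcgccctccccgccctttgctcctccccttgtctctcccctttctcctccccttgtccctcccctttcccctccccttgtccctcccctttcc
They lie at chr11:93741496-93741745 on the minus strand, chr10:94362940-94363189 on the minus strand, chr16:69339522-69339771 on the plus strand and chr1:43172571-43172820 on the minus strand. The ETS core begins 65 bases before the start in TAF1D, 48 in NOC3L and 195 in NIP7. NIP7 also holds a YY1 core 223 bases before its start, and EBNA1BP2 an E-box 237 bases before. NOC3L carries its E-box after the start.

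After WDR5 knockdown the summed TMM-scaled level of the ribosome biogenesis transcripts was higher in all 3 lines. Summed over the 49 tested genes, the level in LM2 was 8247, 7857 and 8131 CPM in the shCtrl libraries and 9837, 9731 and 8720 CPM in the shWDR5 libraries. In the same order BrM3 held 12130, 12090 and 11910 CPM against 15250, 15290 and 15860 CPM, and BoM 12490, 12710 and 13020 CPM against 14840, 16830 and 15750 CPM. In each line the lowest shWDR5 library stood above the highest shCtrl library, and the ratio of shWDR5 to shCtrl means was 1.17 (LM2), 1.28 (BrM3) and 1.24 (BoM). NPM1 and NCL made up 29.9% and 15.7% of the sum. Without them the ratios were 1.15, 1.24 and 1.24, again with no overlap in any line. As a plain share of all counts, without TMM scaling, the 50 genes gave smaller ratios, 1.11 (LM2), 1.2 (BrM3) and 1.16 (BoM). By share the groups were apart in BrM3 and BoM and met in LM2, where shWDR5 replicate 3 held 0.8555% and shCtrl replicate 1 held 0.8563%.

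**Figure D1:**
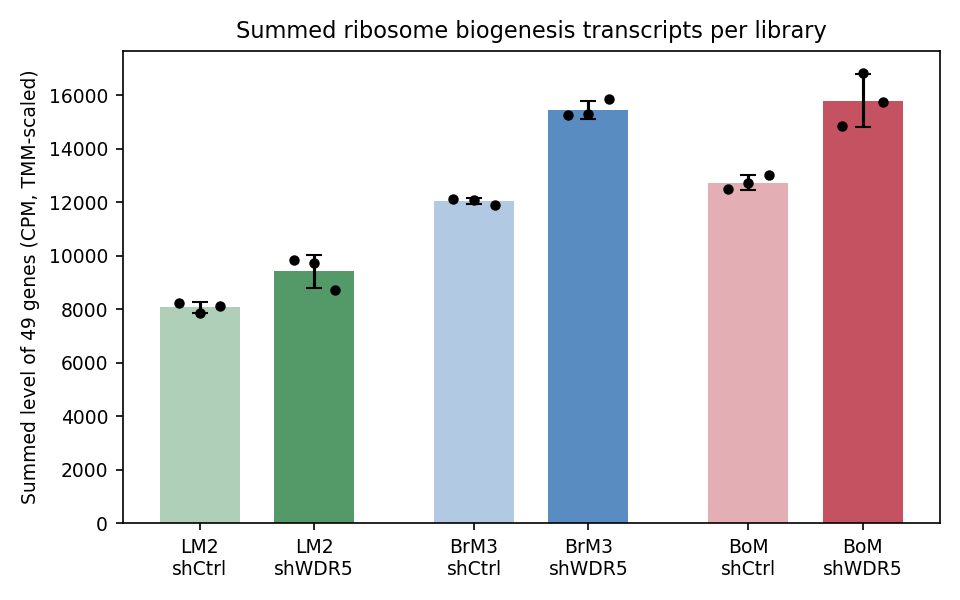
Summed level of the 49 tested genes (CPM, TMM-scaled) in each of the 18 libraries; bars are means of 3 libraries with their SD, and points are libraries. In every line the shWDR5 libraries sit above the shCtrl libraries, with ratios of means of 1.17, 1.28 and 1.24.

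Gene by gene, 33 of the 49 rose in the mean of the 3 lines (edgeR quasi-likelihood test, adjusted p under 0.05), against 15.6% of all tested genes, and 0 fell, against 19.9%. At an unadjusted p under 0.05, 37 were higher (background 20.9%) and 0 lower (23.9%), and DESeq2 called 37 higher (19.7%) and 0 lower (19.8%). The median log2 fold change of the 49 genes was 0.26, beside 0.00 for all tested genes, and 47 of the 49 values were positive. The changes were small, running from −0.03 to 0.56. The genes were also more abundant than most, with a median mean level of 112 CPM beside 31.4 CPM for all tested genes. Of the 33 calls, 26 were also made under all 27 other settings tried, while POLR1B was called under 13 of the 27, RRP12 under 16, RRP1B under 20, RRP9 under 23, and DDX10, NOP58 and RRN3 under 26 each. Of the 16 genes not called, 12 were called under at least 1 of the 27, NOC2L under 12 and WDR75 under 11.

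Within single lines fewer genes passed. In LM2 1 of 49 rose (background 1.48%) and 0 fell (background 4.78%). In BrM3 17 rose (background 2.87%) and 0 fell (background 7.87%), and in BoM 15 rose (background 5.41%) and 0 fell (background 10.7%). At an unadjusted p under 0.05, 16 genes were higher in LM2 (background 7.6%), 29 in BrM3 (9.58%) and 29 in BoM (13.5%), and 0 were lower in each (12.5%, 15.4% and 16.7%). DESeq2 called 7 genes higher in LM2 (background 3.39%), 21 in BrM3 (5.28%) and 23 in BoM (8.87%), and 0 lower in each (6.07%, 9.35% and 11.5%). After a correction for GC content 13 rose in LM2 (background 8.2%), 32 in BrM3 (13.6%) and 26 in BoM (15.8%). With each line fitted alone 0 rose in LM2 (background 0.546%) and 5 in BoM (1.61%), and with upper-quartile scaling 8 rose in BoM (2.91%). Counts for the lines not named under these settings are not given here. The 49 genes had median log2 fold changes of 0.21 (LM2), 0.31 (BrM3) and 0.28 (BoM), with all-gene medians of 0.00, −0.01 and 0.02. All 3 shWDR5 libraries stood above all 3 shCtrl libraries for 21 genes in LM2 (background 10.7%), 29 in BrM3 (background 15.8%) and 17 in BoM (background 12.8%). A set of 11 of the 49 did so in all 3 lines (background 3.39%), namely DKC1, NPM1, POLR1E, TAF1D, UTP4, WDR43, RCL1, BYSL, NOC3L, GNL3 and NIP7.

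The line counts moved with single libraries. The LM2 count of 1, POLR1E, was 0 without LM2 shCtrl replicate 2 or 3 or shWDR5 replicate 1 or 2, 3 without LM2 shCtrl replicate 1, 2 without LM2 or BoM shWDR5 replicate 3, and 5 without BoM shWDR5 replicate 1. The BrM3 count of 17 was 10, 8 and 7 without shCtrl replicate 1, 2 or 3, and 9 and 5 without shWDR5 replicate 2 or 3. The BoM count of 15 was 9 and 8 without shCtrl replicate 1 or 2, 8 without shWDR5 replicate 2 and 23 without shWDR5 replicate 1. The count in the mean stayed between 30 and 34 in the 18 fits that each left out 1 library.

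**Figure D2:**
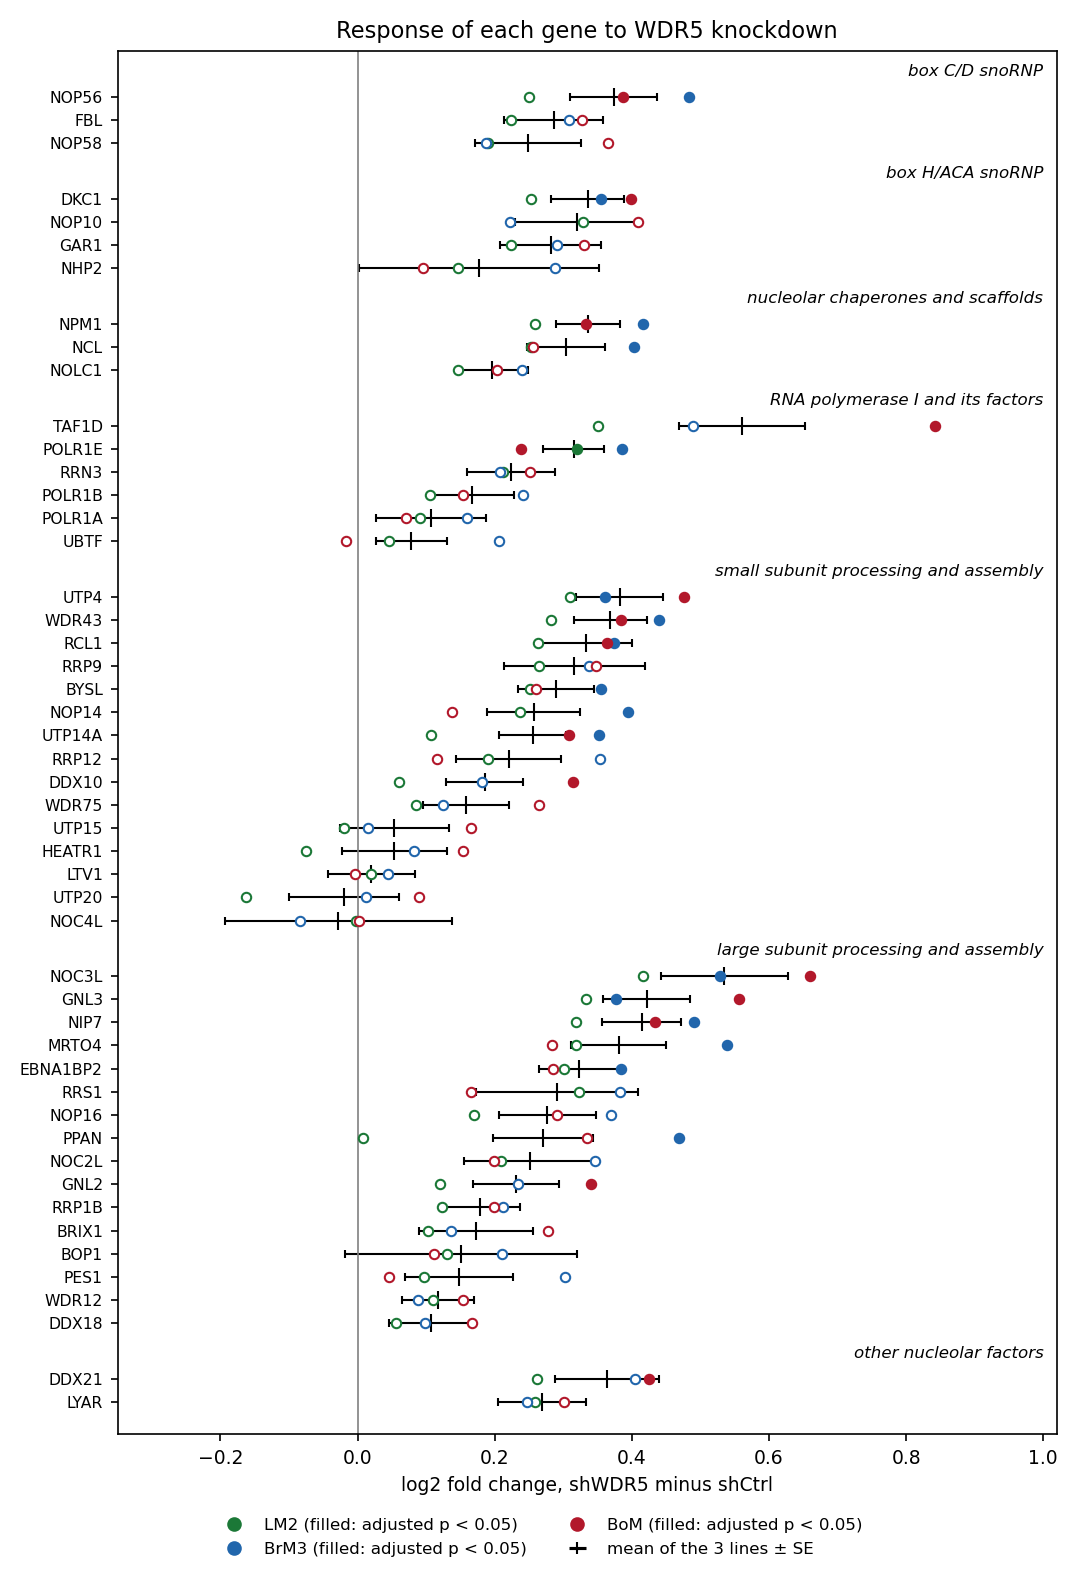
log2 fold change after WDR5 knockdown for the 49 tested genes by role; circles are the 3 lines (filled where adjusted p was under 0.05) and the black mark is the mean of the 3 lines with its SE. Nearly all values lie right of 0, from −0.03 (NOC4L) to 0.56 (TAF1D) in the mean.

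Box C/D snoRNPs carry the ribose methylation of rRNA. All 3 of their genes rose in the mean (background 15.6%). NOP56, a core scaffold protein, rose by 0.37 on the log2 scale, its partner NOP58 by 0.25, and FBL (fibrillarin), the methyltransferase, by 0.29. NOP56 (ENSG00000101361, chr20:2652593-2658393, plus strand; this and later gene positions are from GENCODE 44 on GRCh38) was at 276, 267 and 278 CPM in the LM2 shCtrl libraries and 342, 336 and 299 in the shWDR5 libraries. In BrM3 it stood at 444, 449.9 and 425 against 572, 628 and 642 CPM, and in BoM it was at 525, 588 and 582 against 588, 765 and 865 CPM. The hairpins did not overlap in LM2 or BrM3, and in BoM the lowest shWDR5 library fell among the shCtrl libraries. The fitted log2 fold change was 0.25 (LM2), 0.48 (BrM3) and 0.39 (BoM), and in the mean 0.37 (SE 0.0631, adjusted p = 0.00022).

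FBL (ENSG00000105202, chr19:39834458-39846379, minus strand) showed a smaller and less even difference. It was at 272, 277 and 283 CPM with shCtrl and 328, 323 and 319.9 with shWDR5 in LM2, at 314, 329 and 298 against 313, 403 and 448 in BrM3, and at 311, 372 and 368 against 362, 509.5 and 448 in BoM. The groups were apart in LM2 and overlapped in BrM3 and BoM, and FBL passed in the mean (adjusted p = 0.0054) but in no single line.

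Box H/ACA snoRNPs convert uridine to pseudouridine, and DKC1 (dyskerin) is the enzyme. DKC1, NOP10 and GAR1 rose in the mean, by 0.34, 0.32 and 0.28 on the log2 scale, and NHP2, at 0.18 (SE 0.175), did not pass. The DKC1 level (ENSG00000130826, chrX:154762742-154777689, plus strand) was 233, 205 and 206 CPM in LM2 shCtrl and 270.3, 262 and 235 in LM2 shWDR5. It was 305, 323 and 319.6 against 376, 409 and 426 CPM in BrM3 and 329, 328 and 361 against 406, 506 and 430.1 CPM in BoM. No shWDR5 library reached down to a shCtrl library of its line, although in LM2 the closest pair stood at 233 and 235 CPM. The log2 fold change was 0.25 (LM2), 0.35 (BrM3) and 0.40 (BoM), with 0.34 (SE 0.0536, adjusted p = 0.00013) in the mean.

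The most abundant transcripts were those of the nucleolar chaperones. Per kilobase of exon, NPM1 (nucleophosmin) led the 50 genes at 441 CPM, followed by NCL (nucleolin) at 216, FBL at 163 and NOLC1, a snoRNP chaperone, at 130. All 3 chaperones rose in the mean (background 15.6%). With shCtrl against shWDR5, NPM1 (ENSG00000181163, chr5:171387116-171411810, plus strand) was at 2070, 1882 and 2089 against 2473, 2570 and 2188 CPM in LM2, at 3894, 3720 and 3842 against 5078, 5010 and 5198 in BrM3, and at 3695, 3845 and 3942 against 4354, 5079 and 5035 in BoM. The groups were apart in all 3 lines. Its log2 fold change of 0.34 (SE 0.0466, adjusted p = 3.4e-05) had, with NIP7, the smallest adjusted p of the 49 genes, and single lines gave 0.26 (LM2), 0.42 (BrM3) and 0.33 (BoM). NPM1 shares windows of 50 bases with 28 annotated pseudogenes, and 8.77% of its exon windows occur in another gene, so its count is uncertain.

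NCL (ENSG00000115053, chr2:231453531-231483641, minus strand) was at 1329, 1345 and 1375 CPM in the LM2 shCtrl libraries and 1709, 1682 and 1433 in the shWDR5 libraries, and at 1960, 2035 and 1843 against 2497, 2547 and 2677 in BrM3. In BoM it was at 1829, 1885 and 1869 with shCtrl and 2307, 2522 and 1835 with shWDR5. BoM shWDR5 replicate 3 lay within the shCtrl range, and NCL passed in BrM3 (0.40, adjusted p = 0.014) and in the mean (0.30, adjusted p = 0.00059) but not in BoM (adjusted p = 0.092). NOLC1 rose by 0.20 in the mean.

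**Figure D3:**
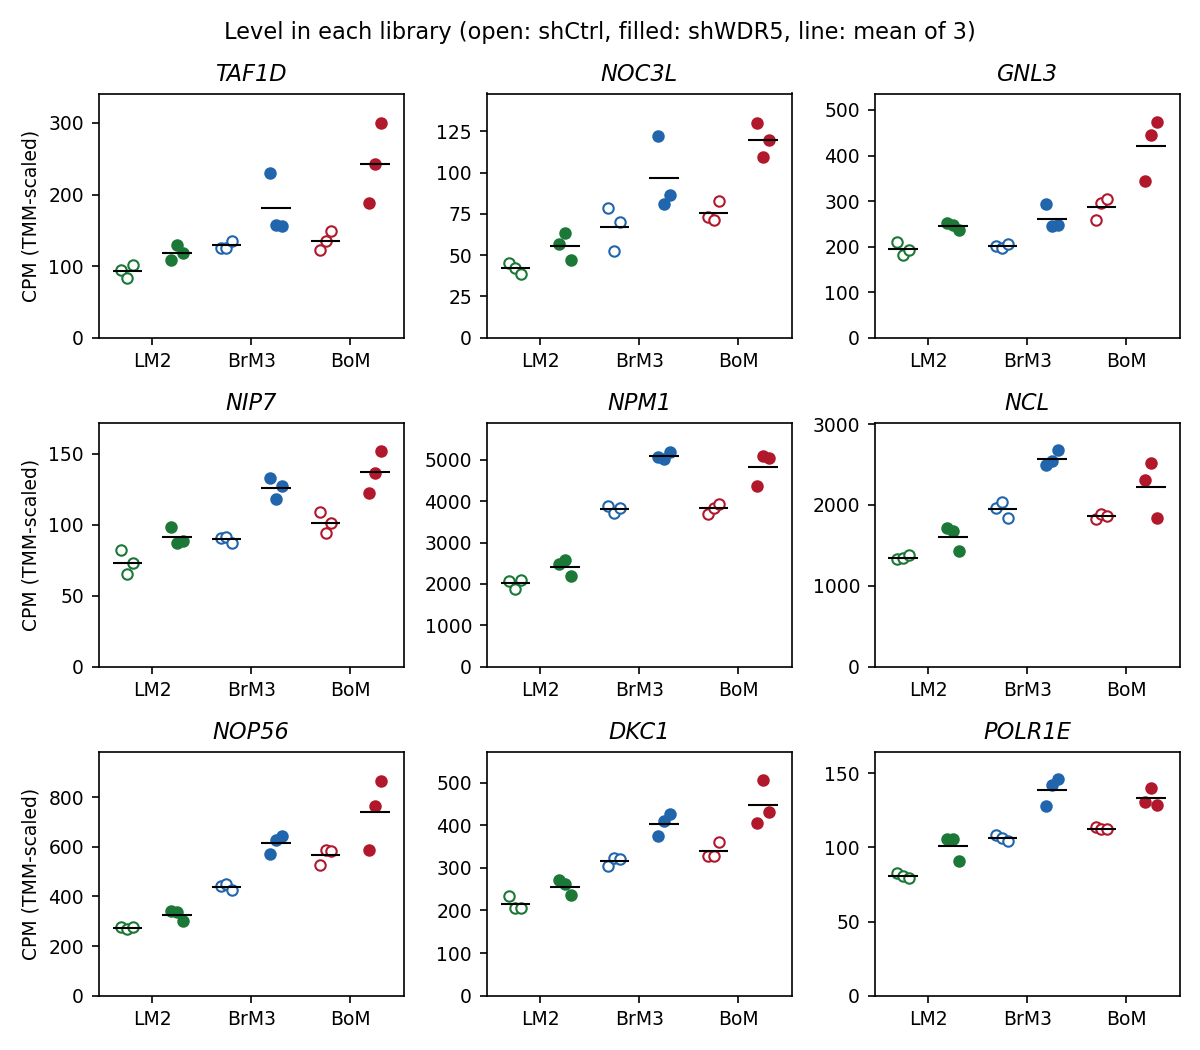
CPM (TMM-scaled) of 9 genes in every library; open circles are shCtrl, filled circles shWDR5, and bars the mean of 3 libraries, with axes from 0. TAF1D in BoM lies between 122 and 149 CPM with shCtrl and between 188 and 299 CPM with shWDR5, and NCL in BoM has 1 shWDR5 library within the shCtrl range.

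Of RNA polymerase I and its factors, 4 of 6 rose in the mean (background 15.6%). They were TAF1D, a subunit of the promoter selectivity factor, POLR1E and POLR1B, subunits of the polymerase, the latter by 0.17 with an adjusted p of 0.042 and called under 13 of 27 alternatives, and RRN3, the initiation factor that brings the polymerase to the promoter. POLR1A, the largest subunit, at 0.11 (adjusted p = 0.32), and UBTF, the upstream binding factor, at 0.08 (adjusted p = 0.26), did not pass. POLR1E (ENSG00000137054, chr9:37485948-37503697, plus strand) was the only 1 of the 49 genes called in all 3 lines. Its level was 82.6, 80.6 and 79.2 CPM in LM2 shCtrl and 106, 105 and 91.0 in LM2 shWDR5, 108, 106 and 104 against 128, 142 and 146 in BrM3, and 114, 112 and 112 against 130.5, 139.8 and 129 in BoM. The shCtrl values of a line lay within a few CPM of each other and below every shWDR5 value. The fold change was 0.32 (LM2), 0.39 (BrM3) and 0.24 (BoM) (adjusted p = 0.019, 0.004 and 0.045).

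TAF1D (ENSG00000166012, chr11:93729948-93784391, minus strand) had the largest rise in the mean, 0.56 (SE 0.0918, adjusted p = 0.00017). It was at 94.5, 83.8 and 101 CPM in the LM2 shCtrl libraries and 109, 129 and 119 with shWDR5, at 126, 126 and 135 against 229.8, 158 and 156 in BrM3, and at 122, 136 and 149 against 188, 242 and 299 in BoM. The groups were apart in every line, but BrM3 shWDR5 replicate 1 stood well above its 2 partners and the BrM3 value of 0.49 missed the threshold (adjusted p = 0.057). In BoM the rise was 0.84 (adjusted p = 0.0018), the largest of any gene here in any line. TAF1D hosts 8 snoRNA genes inside its span, and 6.35% of its exon windows of 50 bases occur in another gene, SNORA8 most of all. RRN3, which rose by 0.22, shares 25.3% of its windows with other genes, the pseudogene RRN3P2 most of all.

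Of the 50 genes, 8 hold snoRNA genes inside their span, namely TAF1D, GNL3, NOP56, NOP58, NCL, WDR43, DKC1 and PPAN, and all 8 rose in the mean, with a median log2 fold change of 0.35. Among the 41 tested genes with no snoRNA inside, 25 rose and the median was 0.23. Of the 16 tested genes with an E-box in the promoter 13 rose, with a median of 0.30, and of the 25 with a promoter and no E-box 15 rose, with a median of 0.25. Over all tested genes 15.6% rose in the mean, and the differences between these subsets were not tested.

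Small subunit factors were divided, with 9 of 15 up in the mean (background 15.6%) and a median of 0.22. Those that rose were UTP4 (0.38) and WDR43 (0.37), which belong to the complex that first binds the nascent rRNA, RCL1 (0.33), a cleavage factor, RRP9 (0.32), a protein of the U3 snoRNP, BYSL (0.29), which acts late in the nucleus, NOP14 (0.26), UTP14A (0.26), RRP12 (0.22) and the helicase DDX10 (0.19). Other proteins of the first-binding complex had smaller values, 0.16 for WDR75, 0.05 for UTP15 and 0.05 for HEATR1, none of which passed. The value was also near 0 for LTV1, a subunit export factor (0.02), UTP20 (−0.02) and NOC4L (−0.03, SE 0.166). LTV1 is uncertain because 34.7% of its exon bases lie under another gene model on the same strand.

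WDR43 (ENSG00000163811, chr2:28894667-28948219, plus strand) had the smallest p of the role. It was at 97.2, 82.3 and 84.8 CPM with shCtrl and 111, 109 and 101 with shWDR5 in LM2, 160.5, 166 and 162 against 243, 212 and 208 in BrM3, and 204, 172 and 203 against 266, 253 and 236 in BoM, with no overlap in any line. Single lines gave log2 fold changes of 0.28 (LM2), 0.44 (BrM3) and 0.38 (BoM), and the mean 0.37 (SE 0.0534, adjusted p = 5.3e-05). DDX10 (ENSG00000178105, chr11:108665058-108940999, plus strand) differed more between lines than between hairpins. Its libraries stood at 68.4, 62.0 and 64.9 CPM with shCtrl and 68.5, 69.8 and 65.2 with shWDR5 in LM2, 105, 90.2 and 98.5 against 128, 102 and 104 in BrM3, and 139.7, 156 and 154 against 170.4, 201 and 187 in BoM. The hairpins overlapped in LM2 and BrM3 and were apart in BoM, where DDX10 rose by 0.31 (adjusted p = 0.036).

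Of the large subunit factors, 9 of the 16 tested rose in the mean (background 15.6%) and all 16 values were positive, with a median of 0.26. They were NOC3L (0.53), the nucleolar GTPases GNL3, also known as nucleostemin (0.42), and GNL2 (0.23), NIP7 (0.41), MRTO4, a placeholder for the ribosomal stalk protein (0.38), EBNA1BP2 (0.32), NOP16 (0.28), PPAN (0.27) and RRP1B (0.18). The 3 proteins of the PeBoW complex, which processes the precursor of the large subunit rRNAs, did not pass, at 0.15 (SE 0.169) for BOP1, 0.15 for PES1 and 0.12 for WDR12. All 3 values were positive, and BOP1 and PES1 were called under 2 of the 27 alternatives each and WDR12 under 7. Neither did RRS1 (0.29, SE 0.118), NOC2L (0.25), BRIX1 (0.17) or the helicase DDX18 (0.11). PPAN shares 49.2% of its exon bases with a same-strand gene model. NOP2, an rRNA methyltransferase, shares 54.4% of its own, and its 8 to 54 counts per library cannot be read as low expression.

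NOC3L (ENSG00000173145, chr10:94333226-94362959, minus strand) was at 45.1, 42.3 and 38.5 CPM in LM2 shCtrl and 56.8, 63.5 and 47.2 in LM2 shWDR5, at 78.4, 52.4 and 70.1 against 122, 81.3 and 86.7 in BrM3, and at 73.3, 71.5 and 82.6 against 130, 109 and 119.7 in BoM. The hairpins were apart in all lines, though the BrM3 shCtrl libraries spread from 52.4 to 78.4 CPM. The fold change was 0.42 (LM2), 0.53 (BrM3) and 0.66 (BoM), and 0.53 (SE 0.0926, adjusted p = 0.00028) in the mean. With shCtrl against shWDR5, GNL3 (ENSG00000163938, chr3:52681156-52694497, plus strand) was at 210.1, 181 and 193 CPM against 252, 247 and 237 CPM in LM2, 202, 196 and 205 against 293, 244 and 247 in BrM3, and 258, 296 and 305 against 344, 445 and 473 in BoM. All 9 shWDR5 libraries stood above the shCtrl libraries of their line, and GNL3 rose by 0.42 (SE 0.0635, adjusted p = 7.7e-05) in the mean.

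NIP7 (ENSG00000132603, chr16:69337996-69343106, plus strand), an RNA-binding factor of pre-ribosomes, was at 82.0, 65.1 and 73.0 CPM with shCtrl and 98.3, 87.5 and 88.4 with shWDR5 in LM2. In the other lines it stood at 90.4, 91.4 and 87.4 against 133, 118 and 127 CPM in BrM3, and at 109, 94.0 and 101 against 123, 137 and 152 CPM in BoM. The groups were apart in each line, and the log2 fold change was 0.32 (LM2), 0.49 (BrM3) and 0.43 (BoM). Opposite-strand genes cover 18.4% of its exon bases, as they do 28.1% in NHP2, 23.1% in HEATR1, 20.7% in NOP14, 18.6% in NOP16 and 13.7% in EBNA1BP2, and whether the counting used strand is not given. MRTO4 (ENSG00000053372, chr1:19251805-19260128, plus strand), shCtrl against shWDR5, was at 117, 112 and 113 against 158, 144 and 125 CPM in LM2, 103, 109 and 94.5 against 129, 151 and 166 in BrM3, and 171, 187 and 162 against 175, 242 and 215 in BoM. It passed in BrM3 (0.54, adjusted p = 0.0083) but overlapped in BoM.

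EBNA1BP2 (ENSG00000117395, chr1:43164175-43270936, minus strand), a scaffold of early large subunit particles, was at 140.1, 129 and 129.6 CPM in LM2 shCtrl and 176, 167 and 149 in LM2 shWDR5. With shCtrl against shWDR5 the values were 318, 306 and 294 against 360.1, 414 and 423 in BrM3 and 308, 330.4 and 329 against 329.8, 406 and 444 in BoM. It rose in BrM3 and in the mean, and the step from LM2 to the other lines was larger than the step between hairpins. DDX21 (ENSG00000165732, chr10:68956135-68985068, plus strand), a helicase that acts in rRNA transcription and processing, was with shCtrl against shWDR5 at 511, 422 and 426 against 607, 569 and 452 CPM in LM2, 523, 477 and 498 against 760.2, 611 and 614 in BrM3 and 689, 512 and 611 against 896, 782 and 756 in BoM. The groups overlapped in LM2, and the rise passed in BoM (0.42, adjusted p = 0.035) and in the mean (0.36, adjusted p = 0.0013). LYAR, a nucleolar zinc finger protein, rose by 0.27 in the mean.

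Whether the lines differed in their response was tested directly. For BrM3 against LM2, 0 of the 49 genes passed (background 0.00828%), for BoM against LM2 0 (background 0%), and for BoM against BrM3 0 (background 0.00828%), so the counts of 1, 17 and 15 do not show a difference between lines. At an unadjusted p under 0.05 the numbers were 1 (background 2.91%), 1 (5.17%) and 0 (2.89%), and DESeq2 also called 0 in each (0.149%, 0.331% and 0.0331%). The genes with the smallest p were PPAN for BrM3 against LM2 (difference 0.46, unadjusted p = 0.0178 by edgeR) and TAF1D for BoM against LM2 (difference 0.49, unadjusted p = 0.0431). The response was larger in BrM3 than in LM2 for 43 of 49 genes, beside 50.1% of all tested genes, with a median difference of 0.10 beside 0.0002 for all tested genes. It was larger in BoM than in LM2 for 36 of 49, beside 52.7% of all, with a median of 0.08 beside 0.01. These differences share the LM2 libraries, of which shWDR5 replicate 3 had the lowest summed level of its group.

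Among the other genes of the pathway more rose than fell. From a list of 125 further biogenesis factors, 124 were tested, of which 49 (39.5%) rose and 2 (1.61%) fell in the mean, against 15.6% and 19.9% of all tested genes, with a median log2 fold change of 0.14. Small subunit factors rose in 21 of 43 cases (48.8%), large subunit factors in 21 of 48 (43.8%) and exosome components and nucleases in 4 of 15 (26.7%). The other roles were lower or near that, with RNA polymerase I factors at 2 of 9 (22.2%), box C/D factors at 1 of 7 (14.3%) and box H/ACA factors at 0 of 2. DDX31, a helicase, was the only 1 of the 124 that rose in each line, by 0.32 in LM2, 0.45 in BrM3 and 0.46 in BoM (adjusted p = 0.042, 0.0046 and 0.0028). Other large values in the mean were 0.42 for PNO1, 0.40 for RPF2, 0.38 for PAK1IP1, 0.36 for TAF1B and 0.35 for RSL1D1. DDX51 and ZNHIT3, a snoRNP assembly factor, fell, with values of −0.25 and −0.24.

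Genes named as ribosomal proteins went both ways. The cytoplasmic list was made by symbol and also holds like-named genes. Their log2 fold changes in the mean include −0.49 for RPL7L1, 0.01 for RPL22L1, 0.08 for RPL26L1, 0.04 for RPL39L and 0.16 for RPS27L. Of 84 tested genes for cytoplasmic ribosomal proteins, 42 (50%) fell and 25 (29.8%) rose in the mean, against 19.9% and 15.6% of all tested genes, and the median log2 fold change was −0.19, with values from −1.42 to 0.54. Of 75 tested genes for mitochondrial ribosomal proteins, 3 (4%) fell and 10 (13.3%) rose, both under those backgrounds, with a median of 0.03. The 49 biogenesis genes ran from −0.03 to 0.56, with 2 values below 0, neither of which passed.

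**Figure D4:**
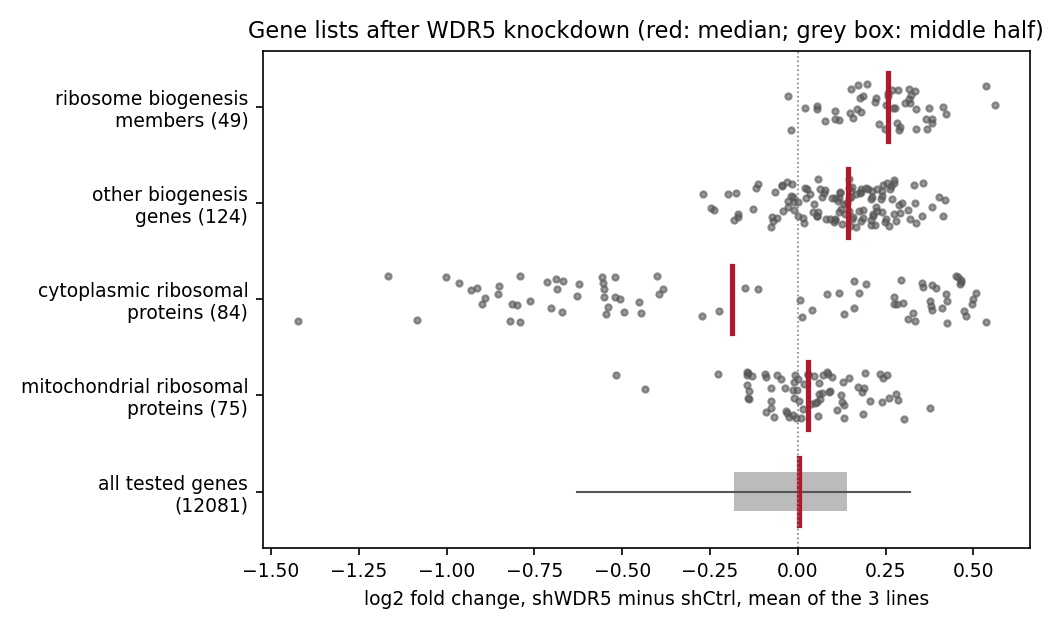
log2 fold change in the mean of the 3 lines for each gene of 4 lists (points), with the list median in red; the grey box and line give the middle 50% and the 5th to 95th percentile of all 12081 tested genes. Medians are 0.26 for the biogenesis genes, 0.14 for other biogenesis factors, −0.19 for cytoplasmic and 0.03 for mitochondrial ribosomal proteins.

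The counts depended on the scaling. With upper-quartile scaling in place of TMM, 27 of 49 genes rose (background 9.16%) and 0 fell in the mean. Their median was 0.20, beside −0.06 for all tested genes, where TMM had given 0.26 beside 0.00. The split over all genes went from 1880 higher and 2400 lower to 1107 higher and 3090 lower. After the GC correction 42 rose (background 31%) and 0 fell, with 3751 higher and 2445 lower over all genes. The median was then 0.31, beside 0.05 for all tested genes. The slope of library level on GC content ran from −0.27 to 0.24 log2 units per 10 points of GC, and the genes had a median GC of 45.9%, beside 47.1% for all tested genes.

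In the shCtrl cells LM2 stood apart from the other lines by more than the hairpins differed within a line. Summed over the 49 genes, LM2 stood at 8078 ± 200 CPM (SD, n = 3), BrM3 at 12040 ± 119 and BoM at 12740 ± 265. Between BrM3 and LM2, 27 genes were higher in BrM3 (background 24.2%) and 0 lower (background 23.4%), with 28 higher (27.3%) and 0 lower (26.7%) at an unadjusted p under 0.05 by edgeR and 27 higher (25.2%) and 0 lower (24.7%) by DESeq2. Between BoM and LM2, 34 were higher in BoM (background 25.9%) and 2, HEATR1 and PPAN, lower (background 25.8%). Between BoM and BrM3, 13 were higher in BoM (background 17.8%) and 4 lower (background 19.8%). The median log2 fold change was 0.31, 0.46 and 0.10 in the same order, beside 0.01, −0.01 and 0.00 for all tested genes. Leaving out BoM or BrM3 shCtrl replicate 3 took the 13 to 8, leaving out BoM shCtrl replicate 2 or 3 or any BrM3 shCtrl library took the 4 to 2, and leaving out BoM shCtrl replicate 2 or 3 or LM2 shCtrl replicate 2 took the 2 to 1. Without LM2 shCtrl replicate 3, 1 gene was lower in BrM3 than in LM2. The lines are 1 derivative each, so that a difference by metastatic site and a difference between single derivatives cannot be told apart.

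EBNA1BP2 differed most from LM2, by 1.20 (SE 0.103, adjusted p = 4.6e-08) between BrM3 and LM2 and by 1.28 between BoM and LM2. With shCtrl it was at 140.1, 129 and 129.6 CPM in LM2 and at 294 CPM or more in every shCtrl library of the other lines. NPM1 was also apart, with no LM2 shCtrl value over 2089 CPM and no other shCtrl value under 3695, a log2 fold change of 0.92 in BrM3 and 0.93 in BoM. DDX10 was lowest in LM2 and highest in BoM, with log2 fold changes of 0.59 for BrM3 against LM2, 1.20 for BoM against LM2 and 0.61 for BoM against BrM3 (adjusted p = 9.3e-05, 2.5e-08 and 0.00011). MRTO4 was higher in BoM than in BrM3 by 0.76 (SE 0.121, adjusted p = 0.00011), while BrM3 and LM2 were close, with a log2 fold change of −0.15 (adjusted p = 0.31). After EBNA1BP2 and DDX10, the next values for BoM against LM2 were 1.13 for WDR43, 1.05 for NOP56 and 1.01 for NOLC1.

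The 4 genes lower in BoM than in BrM3 were POLR1B (−0.55), BOP1 (−0.83), WDR12 (−0.26) and PPAN (−0.35). The BOP1 value was uncertain (SE 0.294, adjusted p = 0.035 by edgeR). Its shCtrl libraries spread from 67 to 110 CPM in BoM and from 118 to 198 CPM in BrM3. BOP1 and WDR12 belong to the same complex, whose remaining protein, PES1, was at 0.16 and did not pass. In the RNA polymerase I group POLR1A, with values of 0.03 and −0.01 against LM2, did not pass in any pair of lines, nor did UBTF, whereas TAF1D and POLR1E were higher in BrM3 and in BoM than in LM2. The chaperones NPM1, NCL and NOLC1 were all higher in BrM3 and BoM than in LM2, and none of the 3 passed between BoM and BrM3.

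**Figure D5:**
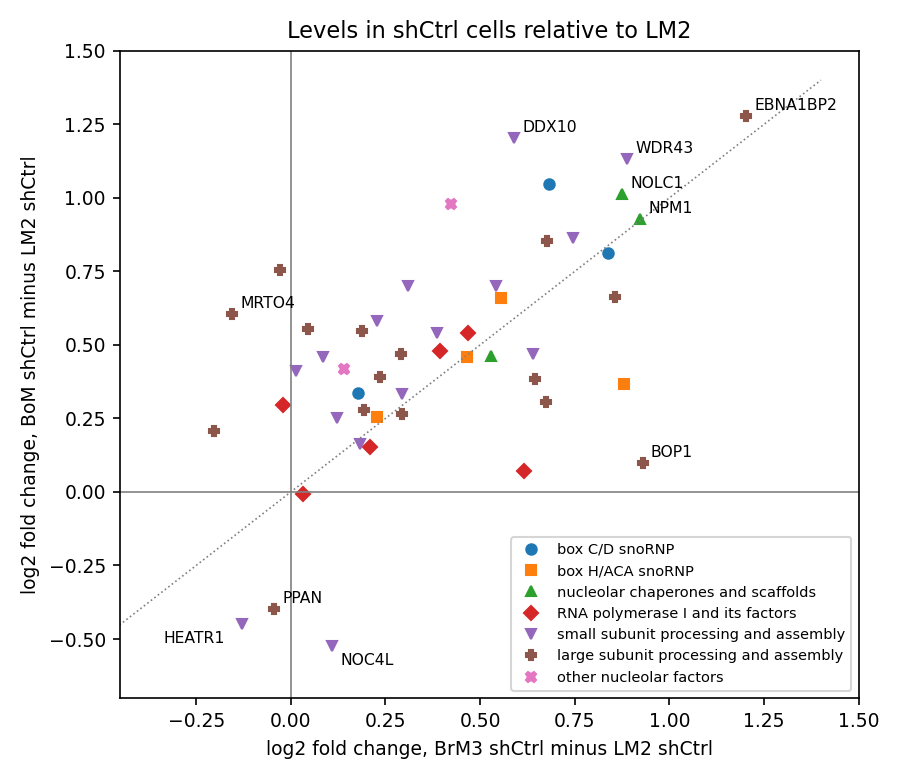
log2 fold change of shCtrl levels relative to LM2 for the 49 tested genes, BrM3 on the horizontal and BoM on the vertical axis; symbols mark roles, the dotted line marks equal values, and both axes share the LM2 libraries. EBNA1BP2 lies farthest out at 1.20 and 1.28, and most genes lie above 0 on both axes.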

How the data were processed

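RNA was measured by stranded, paired-end Illumina mRNA sequencing in 18 libraries. The deposited file holds raw counts per gene that the authors obtained with STAR 2.7.0 on hg38, after base calling with CASAVA 1.8.2 named in the submitters' processing notes. The strand setting of the counting is not given in the sources used here. A second deposited file holds the authors' own fold changes and adjusted p-values and was not used.

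Groups came from the sample titles, and of the 2 hairpin codes in the column names, wd was read as shWDR5 and ad, which no label explains, as shCtrl, the only other hairpin of the titles. The filter was HTSFilter's Jaccard criterion, recomputed, which kept genes with a normalized count above 145.7 in at least 1 library (12081 of 58815). Counts were fitted in 1 edgeR 4.0.16 quasi-likelihood model of 6 groups with TMM scaling (R 4.3.3), with Benjamini-Hochberg adjustment over all tested genes and a threshold of 0.05. The SE is the log2 fold change divided by the square root of F. CPM are counts scaled to the TMM-adjusted library size, and no pseudocount was added. DESeq2 1.42.0, other filters, scalings, a GC correction, a replicate block, separate fits and leaving out each library were tried. The procedure was tested on simulated data. No pair of replicates agreed within sampling noise (chi-square per gene at least 5.16).

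The members, lists and motifs were chosen with earlier results of these data known. The genes given library by library were, by rule, the member of each role with the smallest p in the mean, the 4 largest rises there, the 2 smallest p-values for each pair of shCtrl lines, and NCL, NPM1 and FBL. Other members are named with their fold change. Positions are from GENCODE 44 by gene ID, and promoters are the first RefSeq entry per gene.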

Additional observations from a re-analysis of the deposited data

How the results depend on the processing

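In the mean of the 3 lines, 27 to 45 of the genes rose and 0 fell under the 27 alternatives. The median log2 fold change ran from 0.20 with upper-quartile scaling to 0.31 with GC correction. All tested genes had medians of −0.06 and 0.05 in those settings. The count in the mean could not be defined for lines fitted alone. No difference between lines was called for any gene under any of the 28 alternatives.

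Line counts moved more. With DESeq2, 7 genes rose in LM2 and 23 in BoM. With GC correction, 13 rose in LM2, 32 in BrM3 and 26 in BoM. With each line fitted alone, 0 rose in LM2 and 5 in BoM, and 1 gene was lower in BoM than in LM2 with shCtrl. With upper-quartile scaling 8 rose in BoM. Lines not named under a setting have no count given for it here, and BrM3 ran from 5 to 39 over the 28 alternatives. Between shCtrl lines, GC correction gave 1 gene lower in BrM3 than in LM2 and 1 lower in BoM than in LM2. Leaving out 1 library gave 0 to 5 genes in LM2, 5 to 20 in BrM3 and 8 to 23 in BoM, and 8 to 15 higher and 2 to 5 lower in BoM than in BrM3, 1 to 3 lower in BoM than in LM2 and 0 to 1 lower in BrM3 than in LM2.

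The replicate block gave 7 genes in LM2, 24 in BrM3, 26 in BoM and 38 in the mean, and all 33 genes called without the block were called with it. The replicate block with GC correction gave 28, 39 and 36 in the lines and 45 in the mean. More genes rose in the mean over all 12081 tested genes too. There were 2676 with the block and 4455 with the block and GC correction, beside 1880 in the main fit. For single lines the share over all tested genes is not given in these settings. Their line counts therefore cannot be read as a gain of these genes over the rest. Same-numbered shCtrl and shWDR5 libraries of a line correlated at −0.18 to 0.73 (mean 0.36) in their deviations from the group means. Differently numbered ones correlated at −0.63 to 0.52 (mean −0.19). Equal numbers were thus closer on average, but not every library correlated best with its own number. The main fit did not take the numbers as pairs, and whether equal numbers shared a passage was not tested.

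Of single genes near 0, the sign in the mean changed for NOC4L (0.0069 with filterByExpr, 0.1744 with GC correction and 0.1747 with GC correction and replicate block), UTP20 (0.015 with filterByExpr and 0.0074 with no filter), and UTP15, HEATR1 and LTV1 (−0.0045, −0.0044 and −0.0383 with upper-quartile scaling). Leaving out 1 library gave −0.1173 to 0.0783 for NOC4L, −0.0654 to 0.022 for UTP20 and −0.0384 to 0.0501 for LTV1. Of 2583 gene values under alternatives, 2310 kept sign and call, 116 lost their call, 137 gained one and 20 changed sign. The 2 added alternatives were chosen after seeing the data: thinning every library to 17485841 counts gave 34 genes in the mean and 2 genes lower in BoM than in BrM3 with shCtrl, and TMM scaling without ribosomal protein genes gave 35. Over all tested genes 1747 and 1973 rose in the mean in these 2 settings. The cause of the changes was not tested. Thinning all libraries to the depth of the shallowest left the number called in the mean within 1 of the 33.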
